A study of Homo sapiens with 10 samples.

Results

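The genes described here encode subunits of complexes I, III and IV of the mitochondrial respiratory chain that lie in the nuclear genome. They were chosen by gene symbol alone, as the symbols NDUFA, NDUFB, NDUFC, NDUFS and NDUFV followed by a number, 8 UQCR symbols and 11 COX symbols. This rule found 56 of the 58735 genes in the count table, of which 36 belong to complex I, 8 to complex III and 12 to complex IV. NDUFA4 was counted with complex IV, of which it is a subunit in spite of its name. The RNA came from A253 cells, a human squamous cell carcinoma line of the salivary gland, grown in DMEM with 10% FBS. The control carried lentiviral Cas9 and a guide RNA against dTomato, a red fluorescent protein, and whether it was a pool or a clone is not given in the sources used here. Clone 1 (Cl1) and clone 10 (Cl10) each came from a single A253 cell that had received the same Cas9 vector and a pair of guides that remove exon 2 of DUSP1, a phosphatase that inactivates MAP kinases. The labels call both clones knockouts, and the study describes them as heterozygous for the deletion. It also reports that DUSP1 protein was not seen in either clone by western blot. Each group had 2 libraries. Cl1 and Cl10 are 1 clone each, so that in either one the deletion cannot be told apart from what is particular to the clone.

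The respiratory chain carries electrons from NADH and succinate to oxygen and pumps protons across the inner mitochondrial membrane. Complex I oxidizes NADH and reduces ubiquinone, complex III passes electrons from ubiquinol to cytochrome c, and complex IV uses them to reduce oxygen to water. In each complex a few subunits hold the redox centres, and many small accessory subunits, nearly all nuclear, are needed for assembly and stability. The catalytic proteins of complex IV and the proton-pumping membrane core of complex I are encoded in mitochondrial DNA, so that a working complex needs transcripts of both genomes. Nuclear subunit genes of the chain are known as targets of the factors NRF1, GABPA (an ETS factor), YY1 and the estrogen-related receptors.

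Library totals ran from 47016495 to 70986593 counts. DUSP1 had 743 and 634 normalized counts in the control libraries, 303 and 353 in Cl1 and 494 and 415 in Cl10, so that each clone lay below both controls. Normalized counts are read counts divided by the library's TMM-scaled total and multiplied by the mean of these totals. Squamous and basal epithelial markers summed to between 12288 and 13923 CPM (counts scaled to the same total) in every library, with none of 7 at 0, while the sums of 8 salivary acinar markers lay between 0.128 and 0.436 CPM, with 4 to 6 of them at 0. Fibroblast markers summed to between 30.9 and 51.8 CPM, leukocyte markers to between 6.32 and 13.2 and endothelial markers to between 2.74 and 7.64. In these bulk samples, fewer cells with a transcript and less RNA per cell cannot be told apart. Nothing in the labels says that the 2 libraries of a group came from separate cultures, so the tests measure the spread between these libraries, which may be technical.

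All 56 subunit genes were detected in every library, and their levels differed widely. As TPM, a level per kilobase of annotated exon scaled to the same total in each library, COX8A of complex IV was the highest, with a mean of 1692 over the 6 libraries. NDUFS5, at 1001, led complex I, and UQCRH, the hinge protein that holds cytochrome c1 and cytochrome c together, led complex III at 481. The lowest of each complex were NDUFV2 at 0.888, UQCRB, and COX7A2L at 53.9. The order depended on the length used: per kilobase of the canonical transcript COX8A was still first at 997, COX4I1 moved from rank 12 to rank 2 at 899, and UQCRB, whose canonical transcript has 8459 bases, stayed the lowest of complex III at 16.7. By canonical length the group means of COX8A were 975 ± 55.8 in the control, 1070 ± 32.9 in Cl1 and 947 ± 61.1 in Cl10 (SD, n = 2), and those of COX4I1 were 905 ± 79.3, 947 ± 15.5 and 846 ± 13.0. In both clones the means of these neighbours in the order differed by more than either SD. In the control they differed by more than the SD of COX8A and by less than that of COX4I1.

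The 2 control libraries did not agree on these genes. The subunit genes took 0.513% of all counts in control replicate 1 and 0.619% in control replicate 2, against 0.538% and 0.533% in the Cl1 libraries and 0.487% and 0.460% in the Cl10 libraries. For all 54 subunit genes with at least 100 counts in the 2 controls together, the controls differed beyond counting noise (exact binomial test, unadjusted p under 0.05), compared with 57.9% of the 15278 genes examined. The median difference of replicate 2 minus replicate 1 over 54 subunit genes was 0.32 on the log2 scale, close to the same in complex I (0.32), complex III (0.30) and complex IV (0.35), while it was 0.01 over all 13719 genes with a mean normalized count over 100. Across all genes the same difference fell with transcript length, from a median of 0.18 in the fifth with the shortest exons to -0.18 in the fifth with the longest. Within the clones the subunit genes shifted less, with a median of -0.06 between the Cl1 libraries and of -0.09 between the Cl10 libraries. Each comparison with the control therefore stands between control replicate 1, which was low for these genes, and control replicate 2, which was high, and values without either control library are given beside the results.

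Summed over the 56 genes, normalized counts were 288703 and 353494 in the control, 325443 and 310802 in Cl1 and 275231 and 258419 in Cl10. The Cl1 libraries lay between the controls, and both Cl10 libraries lay below them. Relative to the control the mean of Cl10 differed by -16.9%, and unequally over the complexes, by -11.1% for complex I, -17.9% for complex III and -24.1% for complex IV, while the differences of Cl1 lay between -2.18% and 0.182%. The summed level of complex IV was 97522 and 123151 in the control, 110191 and 105676 in Cl1 and 86527 and 80884 in Cl10. For complex I the higher Cl10 library (135446) was above control replicate 1 (133846), so those groups overlapped. With 2 libraries against 2, an exact permutation test cannot give a p below 0.33, so no test of these sums is given. Per kilobase of exon the sums of all subunits were 11426 ± 1148 in the control, 11093 ± 82.7 in Cl1 and 10543 ± 369 in Cl10 (SD, n = 2), a smaller difference that lay within the spread of the control. On that scale the order of the complexes changed, with differences of Cl10 from the control of -2.83% for complex I, -13.7% for complex III and -11.7% for complex IV. The length used mattered here too. Per kilobase of the canonical transcript, complex I summed to 5900 and 6621 in the control and 6435 and 6071 in Cl10. Complex III summed to 1704 and 1919, then 1616 and 1548, and complex IV to 5020 and 5731, then 4686 and 4559.

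**Figure D1:**
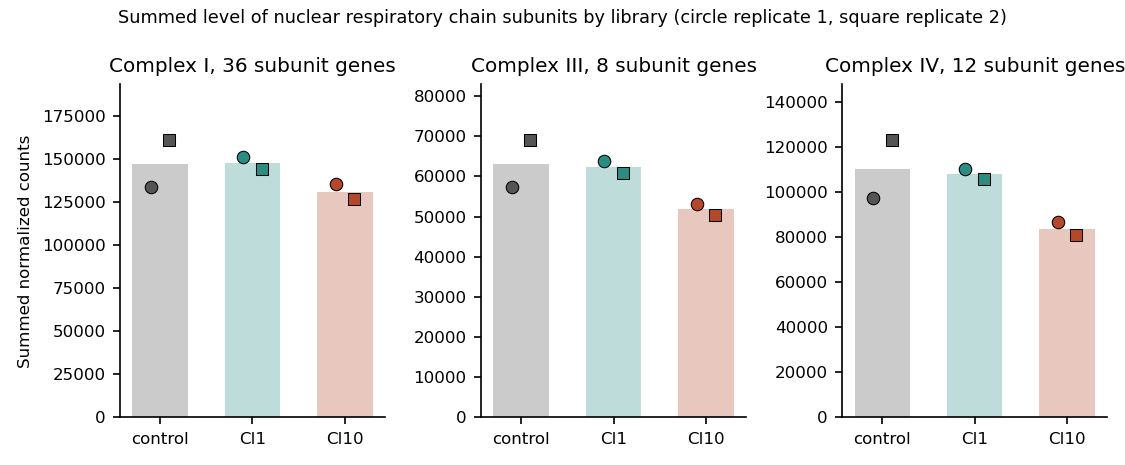
Summed normalized counts (axis from 0) of the subunit genes of each complex in the 6 libraries, with points for libraries and bars for the mean of 2. Both Cl10 libraries lie below both controls in complexes III and IV, and the largest difference in means is that of complex IV, -24.1%.

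The first comparison asked which subunit genes differed between Cl1 and the control. Of the 56 genes, 2 rose and 1 fell at an adjusted p under 0.05 in edgeR's quasi-likelihood test, against 12.4% of the 20153 genes tested that rose and 12.8% that fell. The share of subunit genes called was thus below that of all genes, and their median log2 fold change was -0.04, beside -0.01 for all genes tested. By complex the medians were -0.04 (I), 0.01 (III) and -0.12 (IV). Both Cl1 libraries lay above both controls in 9 genes and below them in 8, where 30.6% and 33% of all genes did so.

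NDUFA2, an accessory subunit of the matrix arm of complex I, rose. It had 2016 and 2681 normalized counts in the control and 3436 and 3175 in Cl1, with a log2 fold change of 0.50 ± 0.135 (SE, adjusted p = 0.0178). NDUFS4, an accessory subunit next to the NADH-oxidizing module, fell from 1804 and 2160 to 1420 and 1580, a log2 fold change of -0.40 ± 0.122 (SE, adjusted p = 0.0304). The 50 tested genes nearest to NDUFS4 on chromosome 5 had a median of -0.30 in Cl1, and those nearest to NDUFA2 one of 0.17, and neither call was made once these medians were subtracted. NDUFA7 rose past 2-fold, as 7.54% of all genes did in either direction, at 1.41 ± 0.464 (SE, adjusted p = 0.0402), but from 11 and 10 raw counts in the control to 24 and 29 in Cl1, and it entered the test only through the clone libraries. None of the 12 complex IV and 8 complex III genes was called by edgeR or DESeq2, and at an unadjusted p under 0.05 only UQCRB was (-0.33). The largest value in the other direction was 0.20, for COX7B. Without control replicate 1 the median of the subunit genes in Cl1 was -0.18, and without control replicate 2 it was 0.14. The direction of the list in Cl1 thus rests on which control library is used.

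The second comparison set Cl10 against the same 2 control libraries. Here 18 of the 56 subunit genes fell (32.1%) and none rose, against 21.8% of the 19875 genes tested that fell and 20.6% that rose. At an unadjusted p under 0.05, 1 gene (NDUFA7) was higher. DESeq2 called 15 lower and 0 higher, against 16.9% and 17% of all genes. The median log2 fold change was -0.25, beside -0.01 for all genes, and 45 of 56 were below 0. Only NDUFA4 was called past a 2-fold change, as 13.4% of all genes were in either direction. NDUFA7 was past 2-fold as well (1.15) but was not called. It had 11 and 10 raw counts in the control and 20 and 21 in Cl10. In 32 of the 56, both Cl10 libraries lay below both controls, and in 2 above, where 37.6% and 36.2% of all genes did so.

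Complex IV showed the largest share, with 5 of 12 genes called lower, a median of -0.34 and every one of the 12 below 0. NDUFA4 had 7457 and 9005 normalized counts in the control, 7427 and 7683 in Cl1 and 3728 and 3358 in Cl10. The Cl10 libraries were far below the 4 others, and the log2 fold change was -1.21 ± 0.113 (SE, adjusted p = 0.000339). COX7A2, the form of subunit 7A found in most tissues, had 5671 and 7429 in the control, 5905 and 5654 in Cl1 and 3714 and 3432 in Cl10, a log2 fold change of -0.87 ± 0.133 (SE, adjusted p = 0.00235). COX6C, a single-span membrane subunit, had 7566 and 10192, then 7566 and 7837, and 6299 and 5351 in Cl10, with -0.60 ± 0.151 (SE, adjusted p = 0.0171). For each of these genes the Cl1 libraries lay within or next to the control range and the Cl10 libraries lay apart from all others. COX6A1 (-0.56) and COX6B1 (-0.39), which face the space between the membranes, were the other 2 called. COX4I1, the largest nuclear subunit, is one of those that enter assembly with the mitochondrial core. It had 17313 and 21746 normalized counts in the control and 16657 and 15899 in Cl10. It was not called (-0.26 ± 0.119, adjusted p = 0.123). COX8A (-0.20), COX7B (-0.32) and COX7A2L (-0.31), the last of which joins complexes III and IV into supercomplexes, were not called either. In 11 of the 12 genes both Cl10 libraries lay below both controls, the exception being COX5A.

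In complex III, 3 of 8 genes fell, and the median was -0.29. These were UQCR10 (3743 and 5100 in the control, 3994 and 3705 in Cl1, 2582 and 2169 in Cl10), UQCRB and UQCRH. Their log2 fold changes were -0.89 ± 0.156 (SE, adjusted p = 0.00417), -0.49 ± 0.113 (adjusted p = 0.0127) and -0.48 ± 0.139 (adjusted p = 0.0294). UQCRB, which sits by the ubiquinone pocket, had 4135 and 5099 normalized counts in the control and 3388 and 3162 in Cl10, and UQCRH had 9993 and 13335 and then 8716 and 7936. The Cl10 libraries were the lowest pair for all 3 genes. The other 5 were not called: UQCRC1 and UQCRC2, the core proteins, had log2 fold changes of -0.13 and -0.26, UQCRFS1, the Rieske iron-sulfur protein, had 0.06 (adjusted p = 0.65), and the small subunits UQCRQ and UQCR11 had -0.32 and 0.15.

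In complex I, 10 of 36 genes fell, with a median of -0.15. The count was 6 with DESeq2, where 16.9% of all genes fell. It was also 6 with the trend on GC content and exon length removed, where 20.4% did. In neither setting was the share of complex I genes called lower above that of all genes. NDUFB8, a membrane-arm subunit, had 638 and 955 normalized counts in the control, 702 and 668 in Cl1 and 426 and 498 in Cl10, and a log2 fold change of -0.78 ± 0.196 (SE, adjusted p = 0.0176). NDUFA6, which anchors the acyl carrier protein to the matrix arm, went from 4686 and 5717 to 3174 and 2886, at -0.77 ± 0.114 (SE, adjusted p = 0.00198), and NDUFB5, another membrane-arm subunit, from 6522 and 7590 to 4543 and 4517, at -0.63 ± 0.0961 (SE, adjusted p = 0.00227). In these 3 genes the Cl10 libraries did not overlap with the 4 others. Others among those called were NDUFB7 (-0.43), NDUFA3 (-0.42), NDUFB9 (-0.36), NDUFC1 (-0.35), NDUFV3 (-0.31) and NDUFA5 (-0.29), of which NDUFC1, NDUFV3 and NDUFA5 were not called by DESeq2. By symbol, 4 of the 11 NDUFB genes (36.4%), whose products lie in the membrane arm, were called lower. So were 3 of the 12 NDUFA genes of complex I (25%), against 21.8% of all genes. The NDUFA share was thus near that of all genes.

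The 7 core subunits that carry the redox centres and the quinone site had a median of 0.06 in Cl10. That of the 29 other complex I genes was -0.18. Of these, 1 of the 7 (14.3%) and 9 of the 29 (31%) fell, against 21.8% of all genes. With the neighbours' median subtracted the medians were -0.19 and -0.21. In Cl10 against Cl1 they were -0.13 and -0.14, so that the contrast was seen in neither. There 2 of the 7 and 11 of the 29 were lower (28.6% and 37.9%), against 24.1% of all genes. NDUFV1, which holds FMN and oxidizes NADH, had 10932 and 12219 normalized counts in the control, 13468 and 13161 in Cl1 and 12409 and 11793 in Cl10. NDUFS1, the largest iron-sulfur subunit, had 8590 and 8115, 9656 and 9485, and 8734 and 8654. Both were highest in Cl1, and neither was called in Cl10 (0.07 and 0.06) or in Cl1 (0.20 for each). NDUFS8, NDUFS3 and NDUFS7, iron-sulfur or quinone-site proteins of the matrix arm, had log2 fold changes of 0.10, -0.02 and -0.21 in Cl10 against control. The contrast between core and other subunits was not tested, since the genes of a group are not replicates.

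**Figure D2:**
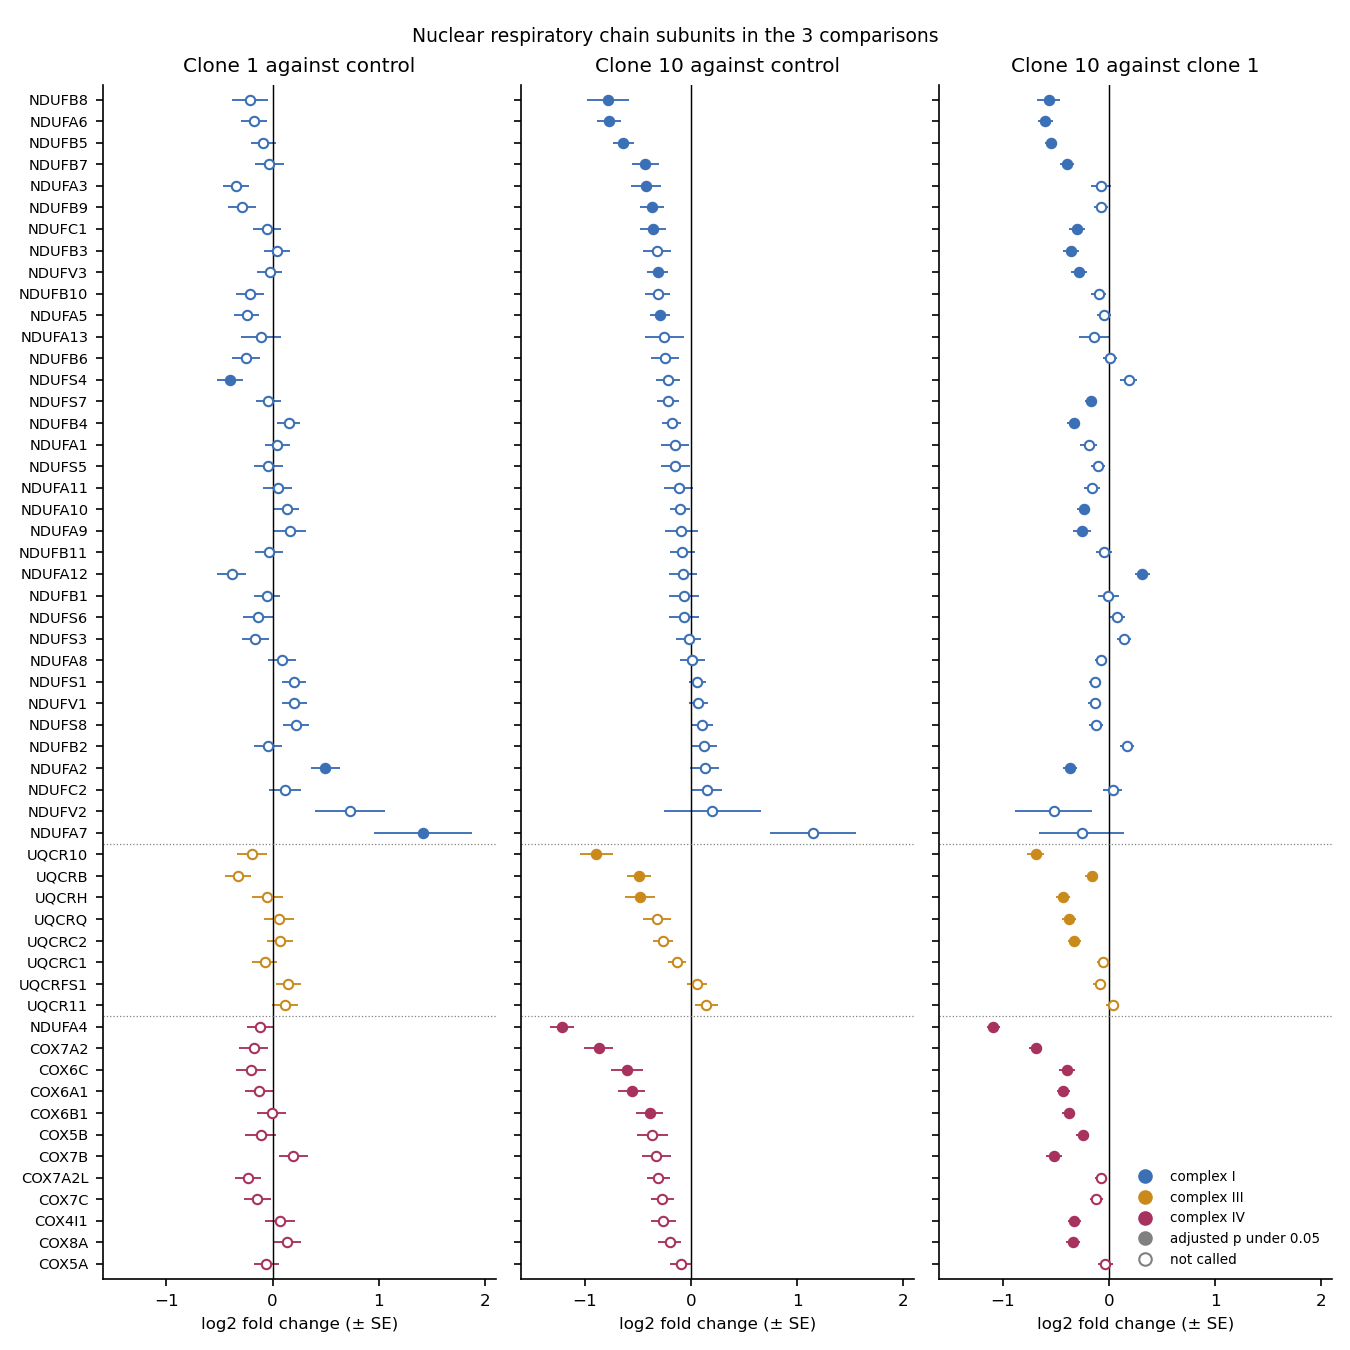
Log2 fold change (horizontal axis, with SE) of 55 subunit genes in the 3 comparisons, grouped by complex and ordered by the Cl10 value, with filled points at an adjusted p under 0.05. In Cl10 against control all 12 complex IV points lie left of 0, and in Cl1 against control all points but those of NDUFA2, NDUFA7 and NDUFS4 are open.

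The control libraries bear on these values as well. Without control replicate 1 the median of the subunit genes in Cl10 was -0.35, with 53 of 56 below 0. Without control replicate 2 it was -0.10, with 37 below 0. The medians of all genes in these 2 fits were -0.000154 and -0.00804. The 18 genes called with both controls were below 0 in each of these fits. Both Cl10 libraries lay below both controls in each of these genes, so this sign was given in advance and is no check. In complex IV, 12 and 11 of 12 genes were below 0 without the one and the other control, with medians of -0.54 and -0.15. In complex I, 33 and 20 of 36 were, with medians of -0.30 and -0.04. Without Cl10 replicate 1 the median of the list was -0.29, and without Cl10 replicate 2 it was -0.21. Transcript length moved with the comparison too, since the median log2 fold change of all genes was -0.09 in the fifth with the shortest exons and 0.07 in the fifth with the longest, and 35 of the 56 subunit genes lay in the 2 bins of 5 with the shortest exons. After a trend on GC content and exon length was subtracted, 12 of the 18 calls remained (lost were COX6B1, NDUFA3, NDUFA5, NDUFB7, NDUFC1 and UQCRH). In that fit 12 of the 56 subunit genes were lower and 1 higher, against 20.4% and 21.6% of all genes. The share of subunit genes called lower was thus near that of all genes. Their median was -0.19, beside 0.02 for all genes. Of 7 squamous and basal markers 1 rose and 1 fell in this comparison, of 3 tested fibroblast markers 2 fell (COL1A1 and COL3A1), the 1 tested leukocyte marker rose (CD14, 0.50) and of 2 endothelial markers 1 rose (CDH5, 2.28). The part of length, library quality and cell state in these differences was not tested.

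**Figure D3:**
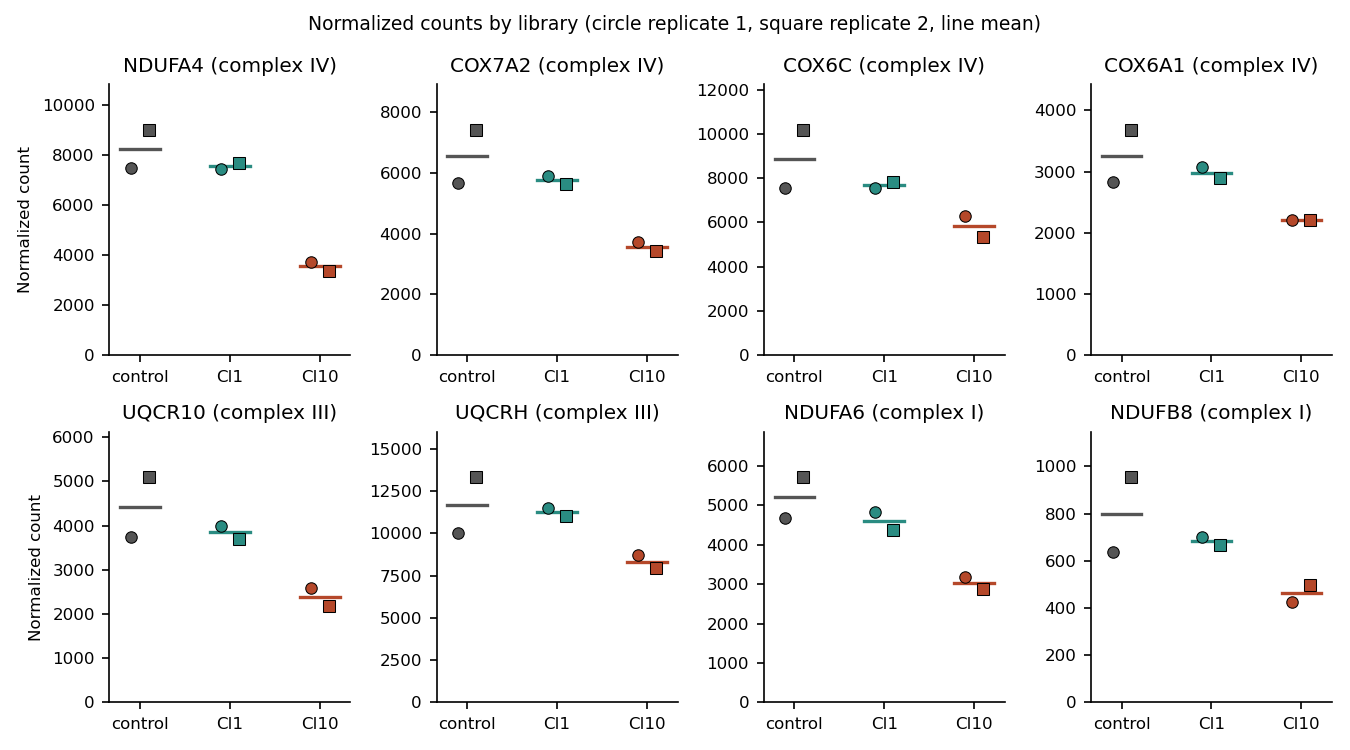
Normalized counts (axes from 0) of 8 subunit genes that fell in Cl10 against both the control and Cl1, by library, with lines at the mean of 2. Control replicate 2 is above control replicate 1 in all 8 genes, and both Cl10 libraries lie below the 4 others, as for NDUFA4 at 3728 and 3358 against 7427 or more.

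The third comparison, Cl10 against Cl1, does not use the control libraries. In it 27 of 56 subunit genes were lower in Cl10 (48.2%) and 1 was higher, against 24.1% and 24.9% of the 19818 genes tested. The median log2 fold change was -0.18, beside -0.0012 for all genes, and by complex it was -0.14 (I, 13 of 36 called lower), -0.24 (III, 5 of 8) and -0.36 (IV, 9 of 12). In 40 genes both Cl10 libraries lay below both Cl1 libraries, and in 4 above, where 37.3% and 37.4% of all genes did so. DESeq2 called 24 lower and 1 higher, against 17.6% and 19% of all genes. Squamous and basal epithelial markers moved in this comparison too, with 5 of 7 lower and 1 higher in Cl10, and their part in the result was not tested. These values share the Cl10 libraries with the second comparison and are no independent check of it. NDUFA4 was again the 1 gene past 2-fold (-1.09 ± 0.0647, adjusted p = 7.89e-08), which 10.8% of all genes were in either direction. COX7A2 (-0.69), UQCR10 (-0.69), NDUFA6 (-0.60), NDUFB8 (-0.57), NDUFB5 (-0.54) and COX7B (-0.52) were also among those called lower.

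Some genes differed between the clones without having been called in Cl10 against the control. COX7B had 7556 and 9787 normalized counts in the control, 9916 and 9917 in Cl1 and 7483 and 6326 in Cl10 (adjusted p = 9.05e-05 between the clones). COX4I1 had 21194 and 19690 in Cl1 against 16657 and 15899 in Cl10, a log2 fold change of -0.32 (adjusted p = 0.000993), and COX8A 15650 and 14247 against 11408 and 12191, one of -0.34 (adjusted p = 0.00108). For both genes the Cl10 libraries also lay below both controls (17313 and 21746 for COX4I1, 12348 and 14854 for COX8A), while the Cl1 libraries overlapped with them. UQCRC2 (-0.33) and UQCRQ (-0.38) were also called lower in Cl10 than in Cl1, and UQCRFS1 (-0.09) and UQCRC1 (-0.06) were not. NDUFA2, raised in Cl1, was lower in Cl10 than in Cl1 (-0.37), as was NDUFS7 (-0.17). NDUFA12, an accessory subunit beside NDUFS4, was the gene that was higher, with 1796 and 1658 in Cl1 and 2131 and 2160 in Cl10 (0.31 ± 0.0671, adjusted p = 0.00186), and the controls, 1947 and 2579, spanned the Cl10 values.

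Position on the chromosome moved with several of the largest differences. For each subunit gene, the 50 tested genes nearest on its chromosome, other subunits left out, had a median log2 fold change in Cl10 against control of -0.83 around NDUFA4 (chr7:10931943-10940153), of -0.65 around UQCR10 (chr22:29767369-29770413), of -0.53 around NDUFA6 (chr22:42085526-42090884) and of -0.43 around NDUFB5 (chr3:179604690-179627647). These neighbours were lower in the same direction as the subunit gene, and the remainders after subtraction were -0.39, -0.24, -0.25 and -0.21. Around other genes that fell the neighbours did not move with them: the median was -0.11 around COX7A2 (chr6:75237675-75250323), 0.06 around COX6C on chromosome 8, 0.06 around COX6A1 on chromosome 12, 0.02 around UQCRH on chromosome 1 and 0.13 around NDUFB8 (chr10:100523740-100530000). The opposite was seen for NDUFV1 and NDUFS8 on chromosome 11, whose neighbours had medians of 0.38 in Cl10 and of 0.38 and 0.40 in Cl1, above the genes' own values. With the neighbours' median subtracted for every gene, 9 of the 18 calls in Cl10 against control and 23 of the 28 in Cl10 against Cl1 remained. In Cl10 against control 16 subunit genes were then called lower and 1 higher, against 19.3% and 20.1% of all genes. In Cl10 against Cl1 the counts were 27 lower and 0 higher, against 21.6% and 23.3%. The medians of the list, -0.24 and -0.19, hardly moved. Over the 56 genes the median of the neighbours' values was -0.000768 in Cl10 against control. Coordinates are those of GENCODE v44 on hg38, and the part of position in these differences was not tested.

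**Figure D4:**
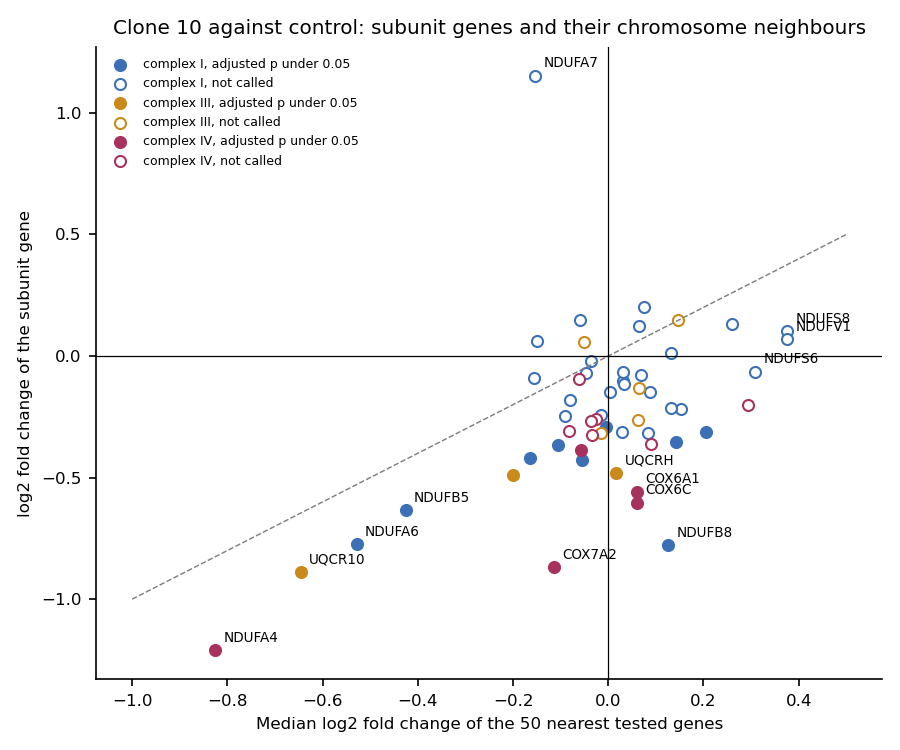
Log2 fold change of 55 subunit genes in Cl10 against control (vertical axis) beside the median of the 50 nearest tested genes (horizontal axis), with a dashed line where both are equal and filled points at an adjusted p under 0.05. NDUFA4, UQCR10, NDUFA6 and NDUFB5 lie far left, between -0.83 and -0.43, whereas COX7A2, COX6C, COX6A1 and NDUFB8 fell with neighbours between -0.11 and 0.13.

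Promoter sequence is shown for 4 genes that fell in Cl10 against both other groups, with neighbours' medians of 0.06 (COX6A1), -0.06 (COX6B1), -0.06 (NDUFB7) and 0.02 (UQCRH), and for UQCR11 of complex III, which was called in no comparison (0.15 in Cl10 against control). These 5 were chosen after their values were seen, and all hold the ETS letters CCGGAAG. The 250 bases before the RefSeq start site (GRCh38.p14) are given 5′ to 3′ on the strand of the gene, in lower case, with every match to a searched motif in capitals on either strand. They lie at chr12:120437863-120438112 (plus strand), chr19:35648073-35648322 (plus strand), chr19:14572067-14572316 (minus strand), chr1:46303448-46303697 (plus strand) and chr19:1605463-1605712 (minus strand).
COX6A1: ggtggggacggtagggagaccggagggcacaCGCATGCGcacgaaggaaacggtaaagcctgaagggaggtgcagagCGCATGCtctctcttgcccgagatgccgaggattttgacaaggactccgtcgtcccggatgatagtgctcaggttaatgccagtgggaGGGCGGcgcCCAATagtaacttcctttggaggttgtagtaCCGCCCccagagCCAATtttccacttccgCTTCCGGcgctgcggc
COX6B1: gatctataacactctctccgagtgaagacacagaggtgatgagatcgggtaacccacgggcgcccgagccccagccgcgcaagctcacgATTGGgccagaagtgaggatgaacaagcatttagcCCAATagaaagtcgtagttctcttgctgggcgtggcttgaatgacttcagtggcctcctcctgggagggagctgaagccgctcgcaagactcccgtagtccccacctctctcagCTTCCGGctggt
NDUFB7: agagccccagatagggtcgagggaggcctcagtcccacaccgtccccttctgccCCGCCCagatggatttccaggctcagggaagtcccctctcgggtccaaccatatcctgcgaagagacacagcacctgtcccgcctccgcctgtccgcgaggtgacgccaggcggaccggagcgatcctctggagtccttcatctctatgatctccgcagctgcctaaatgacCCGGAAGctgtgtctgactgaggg
UQCRH: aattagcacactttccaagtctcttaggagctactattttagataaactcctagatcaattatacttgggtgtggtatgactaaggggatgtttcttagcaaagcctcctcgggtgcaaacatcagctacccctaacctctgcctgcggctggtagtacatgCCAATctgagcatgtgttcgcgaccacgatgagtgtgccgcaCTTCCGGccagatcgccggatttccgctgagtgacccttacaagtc
UQCR11: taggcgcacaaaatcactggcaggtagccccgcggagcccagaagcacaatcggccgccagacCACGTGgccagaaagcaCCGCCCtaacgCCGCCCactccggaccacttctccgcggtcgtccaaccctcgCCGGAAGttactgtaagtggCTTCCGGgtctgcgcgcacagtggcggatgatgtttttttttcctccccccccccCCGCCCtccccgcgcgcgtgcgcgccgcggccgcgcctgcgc
The ETS letters, read as CTTCCGG on the other strand in some of them, ended 10 bases before the start in COX6A1, 6 in COX6B1, 18 in NDUFB7 and 40 in UQCRH, and UQCR11 held them in both orientations, ending 111 and 91 bases before it. COX6A1 also held the NRF1 core GCATGCG on both strands around 219 to 212 bases before the start and once more at 173 to 167.

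Promoter windows of 250 bases before to 50 after a start were found for 48 of the 56 subunit genes. The motifs were searched as letters on both strands, none of them contains another, and a gene counted when any of its windows held a match. CCGGAAG (ETS, GABPA) was in 13 of 48 (27.1%, against 12.2% of 27305 genes), GCATGCG (NRF1 core) in 8 (16.7%, against 4.74%), AAGATGG (YY1) in 12 (25.0%, against 7.11%) and AAGGTCA (estrogen-related receptors) in 6 (12.5%, against 4.80%). GGGCGG (SP1) was in 31 (64.6%, against 48.3%), CCAAT (NFY) in 16 (33.3%, against 39.7%) and CACGTG (E-box) in 4 (8.33%, against 8.78%). In Cl10 against Cl1, 22 matched genes were called lower and 26 were not. CCGGAAG was in 8 of the former and 5 of the latter, CCAAT in 10 and 6, GCATGCG in 5 and 3 and AAGGTCA in 4 and 2. The remaining motifs had lower shares in the genes called, with GGGCGG in 13 and 18, AAGATGG in 5 and 7 and CACGTG in 1 and 3. In Cl10 against control, 12 matched genes were called lower and 36 were not. CCGGAAG was in 4 and 9, CCAAT in 7 and 9, GCATGCG in 3 and 5, AAGGTCA in 2 and 4 and AAGATGG in 4 and 8. GGGCGG (7 and 24) and CACGTG (0 and 4) had lower shares in the genes called. These are descriptions of letters in a window and show no binding.

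The exons of 5 subunit genes lie for the most part within a second annotated gene. NDUFV2 had 17 to 62 raw counts a library, although it is a core subunit, and NDUFA7 had 10 to 29. Of the canonical exon bases, 90.0% in NDUFV2, 83.9% in NDUFA13, 77.9% in NDUFA7, 72.0% in NDUFB8 and 68.2% in NDUFA11 lie within a second gene on the same strand in GENCODE v44, and those second genes held between 0 and 265 counts over the 6 libraries. NDUFV2 and NDUFA7 were also the lowest of the 56 genes per kilobase, and a pseudogene of NDUFV2 held 250 counts against 237 of the gene itself. How reads in shared bases were counted is not given in the sources used here, and its part in these low values was not tested. NDUFV2 had 37.2 and 23.6 normalized counts in the control, 52.9 and 49.1 in Cl1 and 49.0 and 20.3 in Cl10 and was called in no comparison. NDUFB8, which was called in Cl10, is among these 5, and without all 5 the counts were 17 lower of 51 in Cl10 against control and 26 lower of 51 in Cl10 against Cl1. For NDUFS7, 51.3% of the canonical exon bases overlap genes on the other strand. Of the other genes, COX6A1 had 3.54% of its reads' total on pseudogene rows and NDUFA5 1.10%.

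Lists of genes that work with these subunits are given beside all genes, of which 21.8% fell and 20.6% rose in Cl10 against control, 24.1% and 24.9% in Cl10 against Cl1, and 12.8% and 12.4% in Cl1 against control. Of 18 ATP synthase subunit genes, 0 rose and 5 fell in Cl10 against control (median -0.24), and 1 was higher and 12 lower in Cl10 against Cl1 (median -0.23), while in Cl1 against control 1 fell (median -0.08). The 5 were ATP5F1B of the catalytic head (-0.63), ATP5MC2 of the membrane ring (-1.11), ATP5PD (-0.95) and ATP5PO (-0.58) of the stalk, and ATP5ME (-1.73), which lies where 2 synthases pair. At an unadjusted p under 0.05 edgeR gave 0 higher and 6 lower of them, and DESeq2 called 0 and 5. The neighbours of ATP5F1B, ATP5MC2, ATP5PD and ATP5ME had medians of -0.49, -0.51, -0.57 and -0.79, and those of ATP5PO one of -0.0785. Among 4 complex II genes only SDHB fell in Cl10 (-0.43). Of 8 genes for cytochrome c1, cytochrome c and complex III assembly, 3 rose (TTC19, UQCC3 and LYRM7, from 0.35 to 0.43) and 1 fell in Cl10. That one was CYCS, cytochrome c, on chromosome 7, which had 13494 and 16025 normalized counts in the control, 14468 and 13853 in Cl1 and 6818 and 6689 in Cl10. Its log2 fold change was -1.12, with a median of -1.06 among its 50 nearest genes.

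Of 24 tested rows of complex IV assembly factors, 8 fell and 0 rose in Cl10 against control (median -0.15, beside 21.8% and 20.6% of all genes), with 10 and 0 at an unadjusted p under 0.05 in edgeR and 7 and 0 in DESeq2. They were led by COX19 (-0.95), also on chromosome 7, whose neighbours had a median of -0.77. Complex I assembly factors went both ways, with 2 of 16 up (NDUFAF6 at 0.59 and ACAD9 at 0.32) and 5 down, of which COA1 on chromosome 7 (-0.94) was the largest. In Cl1 against control, where 12.8% of all genes fell, 4 of these 16 did, among them NDUFAF2 (-0.65) and TMEM126B (-0.59), while 0 rose by either tool and 1 did at an unadjusted p under 0.05. Among complex IV isoforms outside the list, COX6B2, known from the testis, fell in both clones, from 1470 and 1490 normalized counts in the control to 425 and 469 in Cl1 and 370 and 356 in Cl10 (log2 fold changes of -1.73 and -2.02). NDUFA4L2, a relative of NDUFA4 induced by low oxygen, also fell in both (-0.87 and -0.94), from 242 and 302 to 109 and 191 and to 130 and 152, with a median of -0.80 among its neighbours in Cl10. The clones share their controls in these values.

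Of 12 tested regulators of the chain's genes, 4 rose in Cl10 against control (ESRRA 0.39, YY1 0.37, TFAM 0.43 and TFB2M 0.44). Another 2 fell (POLRMT -0.32 and TFB1M -1.66), where 20.6% of all genes rose and 21.8% fell. In Cl1 against control 3 rose (ESRRA 0.36, TFB2M 0.68 and PPARGC1B 0.63) and 1 fell (TFB1M -0.66). Of all genes 12.4% rose and 12.8% fell there. NRF1 (-0.19 in Cl10), GABPA (0.19) and GABPB1 (0.06) were not called in either clone against the control. In Cl10 against Cl1, NRF1 was called lower (-0.25) and GABPA higher (0.17), while GABPB1 was not called (0.14). Of the 12 regulators 2 were higher and 4 lower in that comparison, against 24.9% and 24.1% of all genes. PPARGC1A, the coactivator of mitochondrial biogenesis, had between 0 and 8.45 normalized counts in every library and was not tested. TFB1M, which methylates mitochondrial ribosomal RNA, had 1817 and 2074 normalized counts in the control, 1233 and 1225 in Cl1 and 559 and 668 in Cl10, beside a median of -0.59 among its neighbours in Cl10. Of the 13 mitochondrially encoded messenger RNAs, 10 fell and 1 rose in Cl10 against control (median -0.47), as MT-CO2 did from 287677 and 335781 to 176336 and 173050, and 1 rose in Cl1 (median 0.18). For the subunits encoded by the nucleus the medians were -0.25 in Cl10 and -0.04 in Cl1, and the difference between the 2 genomes was not tested.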

How the data were processed

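Poly(A) RNA of A253 cells was sequenced. According to the study's methods, HISAT2 (genome hg38) and HTSeq were used by the authors to align reads and to count them by gene. What was deposited is 1 table of raw counts, 58735 genes by 6 libraries, neither normalized nor pooled. The submitters' processing notes also name StringTie and DESeq. The annotation, the strand setting and the treatment of ambiguous reads are not given in the sources used here, and a gene with near-identical copies or overlapping neighbours can lose reads through them. Libraries from cells with SOX2 edited were not analysed here. No column of per-sample values was left out.

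Libraries were grouped by their labels. Each comparison was fitted on its own 4 libraries over all genes with edgeR 4.0.16 in R 4.3.3 (filterByExpr, TMM, estimateDisp, glmQLFit, glmQLFTest), with Benjamini-Hochberg adjustment over all genes tested and calls at an adjusted p under 0.05. Each standard error (SE) is the size of the log2 fold change over the root of its F statistic. DESeq2 1.42.0, other scalings and filters, 1 fit over all libraries, a replicate block, leaving out each library and subtracting the trend on GC content and length or the median of the 50 nearest genes were alternatives. On simulated counts for Cl1 against control, 139 of 200 well-expressed genes changed 1.5-fold among 20153 were recovered, with 2 false calls. Library totals were 47016495 to 70986593 counts. In an exact binomial test of genes with at least 100 counts in a pair of libraries, the libraries of a group differed beyond counting noise (unadjusted p under 0.05) for 54 of 54 subunit genes in the control, 25 of 55 in Cl1 and 32 of 54 in Cl10.

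Gene positions and lengths come from GENCODE v44, and promoters from RefSeq (GRCh38.p14), whose letters matched hg38 at the 5 windows printed. Named with values were the core subunits of complex I, UQCRC1, UQCRC2, UQCRFS1, COX4I1 and NDUFA4, the 3 genes called with the largest change in each complex, direction and comparison, those past 2-fold, and those of highest and lowest level per length. Other names were chosen after their values were seen. The values of 1 subunit gene are not reported here singly, and it is left out of the plots of single genes but kept in all counts, sums and medians. The subunit genes, lists and tests were chosen with earlier results of these data known.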

Additional observations from a re-analysis of the deposited data

How the results depend on the processing

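Without control replicate 1 or 2, Cl1 replicate 1 or 2, or Cl10 replicate 1 or 2 in turn, counts of subunit genes called ran from 0 to 5 higher and 0 to 19 lower in Cl1 against control, 0 to 11 higher and 7 to 45 lower in Cl10 against control, and 1 to 4 higher and 19 to 38 lower in Cl10 against Cl1. Those past 2-fold ran from 0 to 1, 1 to 4 and 1 to 2, and the medians from -0.18 to 0.14, -0.35 to -0.10 and -0.23 to -0.13. The lone library left in an arm is assumed in these fits to vary like the other group. In Cl1 against control (2 higher, 1 lower, 1 past 2-fold), the count higher was 1 with DESeq2, with library size only and with the median of the 50 nearest genes subtracted, the count lower was 4 with library size only or no filter on low counts, 3 with 1 fit over the 6 libraries or with the trend on GC content and length removed, and 0 with the nearest genes subtracted, and the count past 2-fold was 0 with DESeq2 and with library size only. In Cl10 against control (0 higher, 18 lower, 1 past 2-fold), the count lower was 28 with no filter, against 14.9% of all genes. The count higher was 1 when each library had to hold 10 counts or more, with the nearest genes subtracted and with the trend subtracted. Of all genes 21.4%, 20.1% and 21.6% were higher in these settings. The count past 2-fold was 2 with that minimum and with the trend. In Cl10 against Cl1 (1 higher, 27 lower, 1 past 2-fold), the count higher was 4 with library size only, 0 with 1 fit and with the nearest genes subtracted and 3 with the trend, the count past 2-fold was 0 with the nearest genes subtracted, and the median was -0.11 with library size only. Of all genes in Cl1 against control, 11.6% were higher with DESeq2, 9.64% with library size only and 12% with the nearest genes subtracted. The shares lower were 15.8% with library size only, 8.55% with no filter and 15.4% with 1 fit. They were 13.1% with the trend and 11.3% with the nearest genes subtracted. In Cl10 against Cl1 29.8% were higher with library size only and 17.9% with 1 fit. There 23.3% were with the nearest genes subtracted and 26.6% with the trend. The cause of these changes was not tested.

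The replicate numbers do not pair the libraries, since the labels tie the numbers to no shared culture and the correlations of same-numbered libraries' deviations over 13719 genes were -0.178, -0.126 and -0.0362 in the 3 comparisons. With a replicate block the counts lower were 2, 22 and 28, against 12%, 22.4% and 24.6% of all genes. With the numbers crossed, a setting chosen after seeing the data, they were 5 in Cl1 and 26 in Cl10 against control. Of all genes, 17.3% and 25.4% were lower in these 2 crossed fits.

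Of 87 log2 fold changes of named genes over the 3 comparisons, 27 changed sign under 1 or more alternatives. With library size only, COX4I1 (-0.000696), UQCRC2 (-0.00366) and UQCRQ (-0.00959) did so in Cl1 against control and UQCRC1 (0.0158) in Cl10 against Cl1. With the nearest genes subtracted, COX8A (-0.0928), NDUFS5 (0.0277), NDUFS8 (-0.18), NDUFV1 (-0.18), UQCRH (0.0639) and UQCRQ (-0.18) did in Cl1 against control, NDUFA2 (-0.13), NDUFS3 (0.0154), NDUFS8 (-0.27) and NDUFV1 (-0.31) in Cl10 against control and NDUFS4 (-0.17) in Cl10 against Cl1. Over the fits that leave out 1 library, the log2 fold change in Cl1 against control ran from -0.0894 to 0.24 for COX4I1, -0.40 to 0.0295 for COX6C, -0.36 to 0.0317 for COX7A2, -0.25 to 0.0229 for NDUFA4, -0.20 to 0.0262 for NDUFB5, -0.48 to 0.11 for NDUFB8, -0.32 to 0.0155 for NDUFS3, -0.23 to 0.17 for NDUFS5, -0.17 to 0.10 for NDUFS7, -0.41 to 0.0454 for UQCR10, -0.0226 to 0.16 for UQCRC2, -0.24 to 0.18 for UQCRH and -0.12 to 0.26 for UQCRQ. In Cl10 against control it ran from -0.27 to 0.14 for NDUFA12, -0.0711 to 0.34 for NDUFA2, -0.19 to 0.15 for NDUFS3, -0.34 to 0.0596 for NDUFS5, -0.0203 to 0.22 for NDUFS8, -0.0172 to 0.15 for NDUFV1, -0.58 to 0.68 for NDUFV2 and -0.0477 to 0.15 for UQCRFS1, and in Cl10 against Cl1 from -0.61 to 0.11 for NDUFA7. In Cl10 against control, none of the 18 subunit genes called lower changed sign under any setting run. They were picked as called lower in these same libraries, with both Cl10 libraries below both controls, so this is no independent check. With 10 to 29 counts of NDUFA7 and 17 to 62 of NDUFV2 in a library, depth limits what can be said of these 2 genes.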
